A study of Mus musculus with 32 samples.

Results

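The 9 genes described here make, remove, carry and sense retinoic acid: Rdh10, Aldh1a2, Dhrs3, Cyp26a1, Crabp1, Crabp2, Rara, Rarb and Rarg. They were picked by gene symbol from the 21886 genes of a table of raw read counts. All 9 were in the table, and 8 passed the expression filter of at least 1 CPM (reads scaled to a common library total) in at least 16 libraries. Rarb did not pass and is given as read counts. The RNA came from mouse presomitic mesoderm (PSM), the tissue that forms somites, grown in culture from epiblast stem cells of the AES0204 line with a luciferase reporter of Hes7, a repressor at the core of the segmentation clock.

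The libraries belong to 2 independent time courses, Ex5 and Ex4, which share cell line, reporter and treatment. The PSM medium, named CDMi, held the TGF-β receptor inhibitor SB431542, the BMP receptor inhibitor LDN193189, the GSK3 inhibitor CHIR99021 and bFGF, with less CHIR99021 after the second change of medium. The agents named in the labels include no retinoid. Ex5 comprised 16 dishes labelled 165 to 425 min and Ex4 16 dishes labelled 155 to 405 min, with 1 library per dish and time. Library totals were 16.1 to 28.6 M counts in Ex5 and 19.3 to 29.5 M in Ex4. Each experiment was 1 preparation of 1 reporter line, so p-values measure the scatter of dishes around a fitted curve, and preparation and experiment cannot be told apart. The PSM label was checked against 5 PSM markers (Tbx6, Msgn1, T, Hes7 and Dll1), which summed to 2272 to 2719 CPM in Ex5 and 1777 to 2282 CPM in Ex4, with none at 0. Transcripts known from anterior PSM and somites were uneven. Mesp2, Ripply2, Meox1, Tcf15, Pax3 and Foxc2 together summed to 3.96 to 10.7 CPM in Ex5 and 4.35 to 8.27 CPM in Ex4, whereas Foxc1 alone averaged 63.0 ± 9.83 CPM in Ex5 and 42.4 ± 7.04 CPM in Ex4. Of the markers of other types, 4 of epiblast (Pou5f1, Nanog, Fgf5 and Utf1) summed to 21.99 to 57.4 CPM in Ex5 and 31.99 to 86.5 CPM in Ex4, 6 of lateral, intermediate and vascular mesoderm to 6.62 to 16.5 CPM in Ex5 and 5.25 to 9.79 CPM in Ex4, and 4 of endoderm to 0.581 to 1.55 CPM in Ex5 and 0.780 to 1.71 CPM in Ex4.

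Retinoic acid is made from vitamin A in 2 oxidation steps, from retinol to retinaldehyde by Rdh10 and from retinaldehyde to retinoic acid by Aldh1a2. Dhrs3 turns retinaldehyde back into retinol, and Cyp26a1 oxidises retinoic acid for removal. Crabp1 and Crabp2 bind retinoic acid in the cytoplasm, and the receptors Rara, Rarb and Rarg bind DNA together with RXR partners. In the mouse embryo Aldh1a2 is known from somites and anterior PSM and Cyp26a1 from the tail bud, where it keeps retinoic acid low.

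Promoter sequence is shown for the pair of members whose window held a DR5, the response element best known for retinoic acid receptors. A DR5 was searched as 2 half-sites (each being AGGTCA or else AGTTCA or else GGGTCA or else GGTTCA) in the same direction with 5 bases between them, on both strands of the 250 bases before each start in RefSeq's promoter table for GRCm38.p6. The table gave 13 entries for 7 members, and Rdh10 and Crabp2 have none. A DR5 stood in 29 of all 32851 promoters (0.0883%), and Cyp26a1 and Rarb were the members that had one. The lines below run 5′ to 3′ on the gene's own strand from base 250 to base 11 before the start. Only the 2 half-sites of the DR5 are in capitals, and single half-sites elsewhere are not marked. Cyp26a1 lies at chr19:37697558-37697797 on the plus strand and Rarb at chr14:16575487-16575726 on the minus strand.
Cyp26a1: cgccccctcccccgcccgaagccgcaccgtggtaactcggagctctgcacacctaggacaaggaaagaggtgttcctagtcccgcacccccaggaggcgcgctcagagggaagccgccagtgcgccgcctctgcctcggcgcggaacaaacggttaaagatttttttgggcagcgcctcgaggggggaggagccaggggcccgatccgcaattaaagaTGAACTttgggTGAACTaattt
Rarb: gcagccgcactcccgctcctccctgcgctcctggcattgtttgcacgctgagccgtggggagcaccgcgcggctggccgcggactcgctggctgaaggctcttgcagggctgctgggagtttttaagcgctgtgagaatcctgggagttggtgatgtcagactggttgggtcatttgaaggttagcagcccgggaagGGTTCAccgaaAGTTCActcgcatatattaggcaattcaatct

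The element lay 32 to 16 bases before the Cyp26a1 start, on the opposite strand, where it reads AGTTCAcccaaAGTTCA. The GENCODE M21 start of Cyp26a1, used for the gene's coordinates below, lies 10 bases upstream of the RefSeq start, and from there the element lay 22 to 6 bases away. In Rarb it lay 53 to 37 bases before the RefSeq start and read GGTTCAccgaaAGTTCA on the gene's strand. That start is not the start of the GENCODE M21 gene, which on the minus strand begins at 16819156. The Rarb window therefore lies inside the gene as its coordinates are given below. Both elements are known from studies of retinoic acid response. The same windows were searched for DR2 (0.174% of all promoters) and DR1 (0.164%), the same half-sites 2 or 1 bases apart. None of the 7 members with an entry had a match, and Rdh10 and Crabp2 were not searched. A single half-site, which the DR5 also contains, stood in 38.6% of promoters and in those of Cyp26a1, Rara, Rarb and Rarg. Of 3 motifs bound by HES and HEY repressors, CACGTG (6.02% of promoters) was found before Rara, CACGCG (7.62%) before Rarg and CACNAG (36.7%) before Crabp1, Dhrs3 and Rara. TGGGAA (21.6%), part of the RBPJ site, stood before Dhrs3 and Rara, and CTTTGA (13.8%), of TCF/LEF factors, before Dhrs3. A match is only a stretch of letters, and none of these windows was tested for binding.

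Levels can be compared between genes only per length, so CPM was divided by the kilobases of exon in GENCODE M21. Crabp2 and Crabp1 were the most abundant members, at 332 ± 30.9 and 186 ± 15.8 CPM per kb in Ex5 and at 266 ± 22.5 and 96.9 ± 7.38 CPM per kb in Ex4 (SD, n = 16 libraries each). Rarg followed (44.1 ± 1.86 in Ex5, 52.1 ± 2.82 in Ex4), then Aldh1a2 (30.4 ± 4.26 in Ex5, 26.8 ± 2.73 in Ex4) and Cyp26a1 (18.4 ± 2.24 in Ex5, 16.1 ± 1.58 in Ex4), all in CPM per kb. Rara had 7.13 ± 0.53 CPM per kb in Ex5 and 6.29 ± 0.31 in Ex4, and Rdh10 had 2.18 ± 0.18 in Ex5 and 2.71 ± 0.16 in Ex4. Dhrs3 (0.867 ± 0.283 in Ex5, 0.891 ± 0.148 in Ex4) and Rarb (0.0228 in Ex5, 0.0214 in Ex4) were lowest. The order of the 9 was the same in both experiments, and no neighbours in it overlapped within an experiment. The narrowest gap was between Rarg, whose lowest Ex5 library had 41.7 CPM per kb, and Aldh1a2, whose highest had 40.6 CPM per kb.

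**Figure D1:**
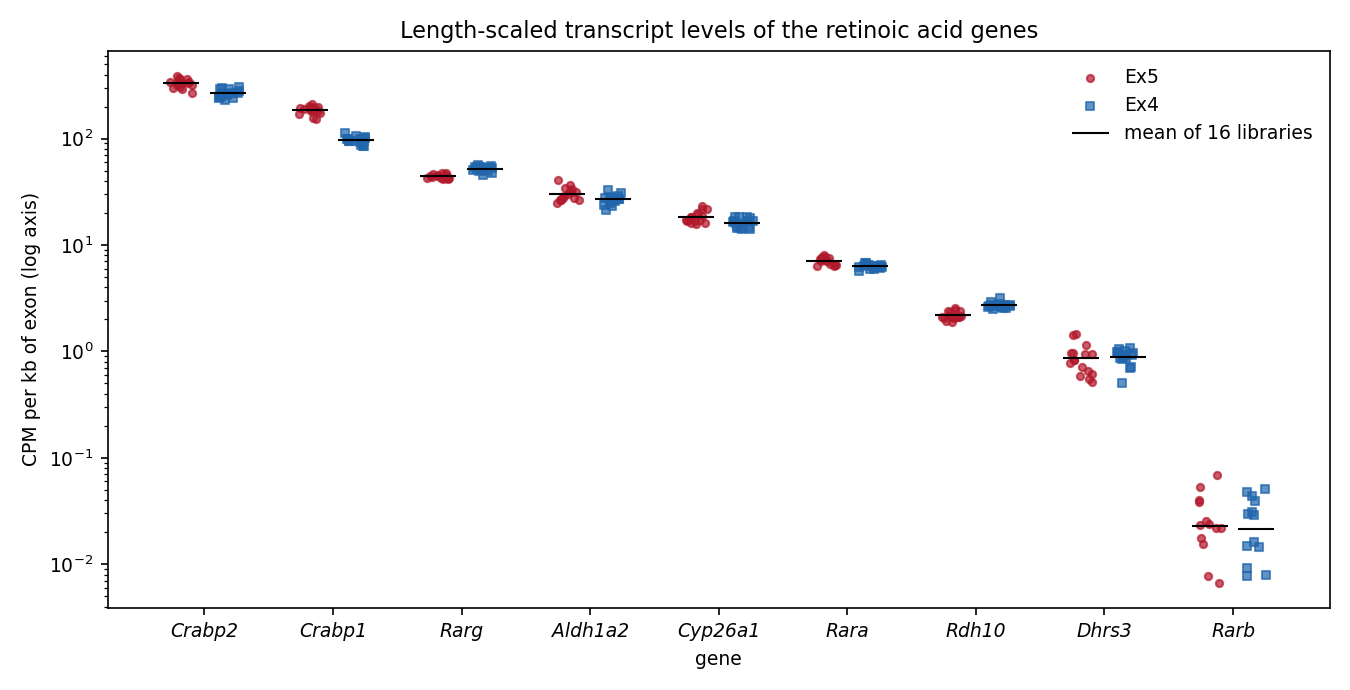
CPM per kb of exon (log axis) of the 9 genes in each Ex5 library (circles) and Ex4 library (squares), with the mean of 16 libraries as a bar. The means run from Crabp2 (332 in Ex5, 266 in Ex4) to Rarb (0.0228 in Ex5, 0.0214 in Ex4), whose libraries at 0 (3 in each experiment) cannot be drawn on a log axis.

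Of the 2 synthesis enzymes, Aldh1a2 fell over time in both experiments. Aldh1a2 (chromosome 9, 71215789 to 71296243, plus strand, mm10) had a lowest, median and highest level of 56.3, 66.8 and 91.8 CPM in Ex5 and of 48.4, 61.0 and 74.0 CPM in Ex4. The first library was the highest and the last the lowest in both experiments, and the ranges overlapped, with 4 Ex5 libraries above all of Ex4. The fitted slope was -0.21 ± 0.03 (SE) in Ex5 and -0.15 ± 0.03 in Ex4, in log2 per 100 min. The mean slope was -0.18 ± 0.02 (adjusted p = 1.73e-08, edgeR's quasi-likelihood test with Benjamini-Hochberg adjustment over 11772 genes, as for all adjusted p-values here). In Ex5 the level was log2 0.19 ± 0.03 higher at 285 min (adjusted p = 4.00e-06), the time on which the fit was centred. Such a change in bulk RNA cannot tell fewer expressing cells from less RNA per cell. A pair of transcripts of epiblast, the starting cell type, also declined: Pou5f1 had a mean slope of -0.54 ± 0.02 (adjusted p = 3.30e-20) and a level difference of log2 -0.39 ± 0.03 (adjusted p = 2.81e-12), and Cdh1 had a mean slope of -0.59 ± 0.02 (adjusted p = 7.82e-23) and a level difference of -0.48 ± 0.03 (adjusted p = 1.11e-16). Of 8 epiblast genes 3 passed the filter, and 2 of these fell, 1 rose and all 3 were lower in Ex5. Among all tested genes 26.6% fell, 26.8% rose and 27.7% were lower in Ex5. The part of epiblast transcripts in the trends and level differences given here was not tested. A pseudogene, Gm48124, overlaps Aldh1a2 on the other strand, and the strand setting of the counting is not given in the sources used here.

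Rdh10 (chromosome 1, 16105774 to 16133734, plus strand) was lower in Ex5, with 7.83, 8.85 and 10.6 CPM (lowest, median, highest) against 10.4, 11.2 and 13.3 CPM in Ex4. All but 1 of the Ex5 libraries, 15, lay below every Ex4 library. The level difference was log2 -0.32 ± 0.04 (adjusted p = 7.39e-09). Its mean slope of 0.05 ± 0.03 log2 per 100 min did not pass (adjusted p = 0.119), though it did without the Ex5 library at 165 min (0.0387) or the Ex4 library at 245 min (0.0422).

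Dhrs3 (chromosome 4, 144892827 to 144928209, plus strand) fell over time in Ex5 and not detectably in Ex4. The 16 libraries gave 1.51, 2.41 and 4.28 CPM in Ex5 (lowest, median, highest) and 1.46, 2.71 and 3.13 CPM in Ex4, from 26 to 107 reads per library in Ex5 and 36 to 92 in Ex4. Its first 3 libraries in Ex5 had 4.13, 3.33 and 4.28 CPM and its last 3 had 1.60, 1.51 and 2.26 CPM, so the ends of the time course did not overlap. In Ex4 the first 3 libraries had 3.05, 2.72 and 2.90 CPM and the last 3 had 2.70, 2.55 and 2.96 CPM. Slopes were -0.36 ± 0.09 log2 per 100 min in Ex5 (adjusted p = 0.000905) and 0.10 ± 0.08 in Ex4 (adjusted p = 0.405). The difference between the slopes passed the test, at -0.45 ± 0.12 (adjusted p = 0.00710). The level at 285 min differed by log2 -0.09 ± 0.09 (95% interval -0.28 to 0.10, adjusted p = 0.430).

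**Figure D2:**
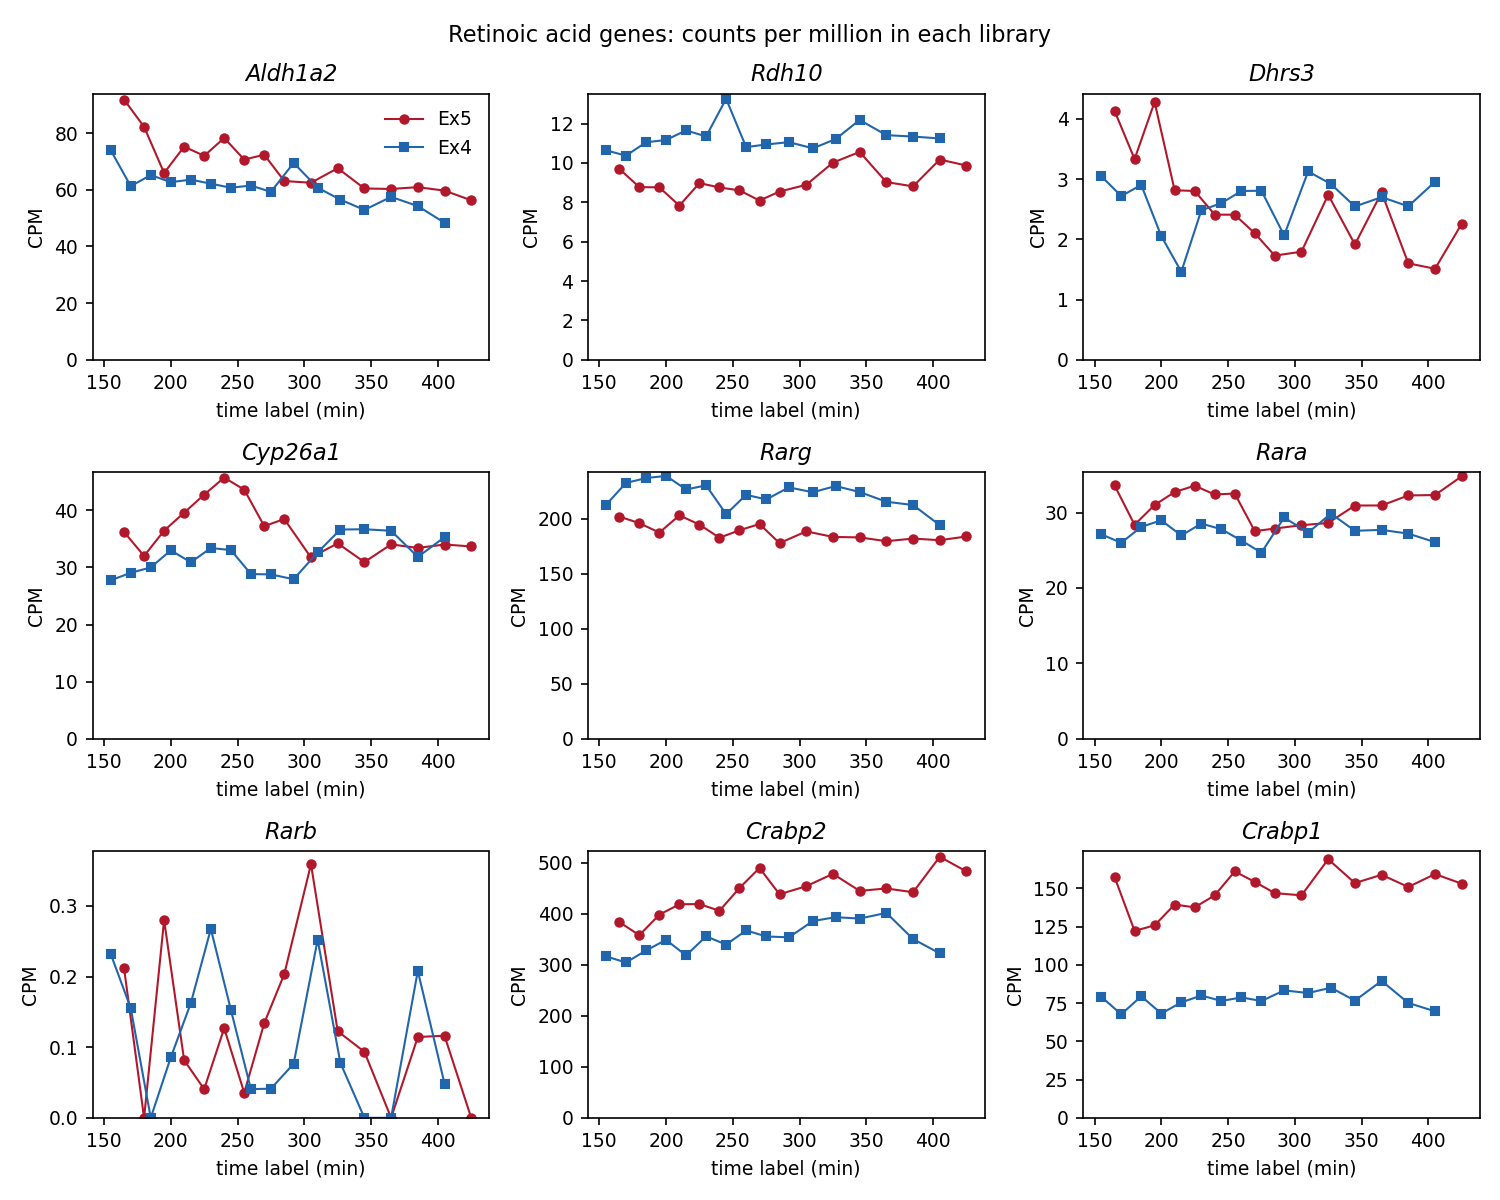
CPM of each gene against the labelled time in minutes, in Ex5 (circles) and Ex4 (squares), 1 library per point. Aldh1a2 declined in both experiments, Dhrs3 declined in Ex5, Crabp1 ran apart in Ex5 (122 to 169 CPM) and Ex4 (67.7 to 89.6 CPM), and Rarb reached at most 0.359 CPM.

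Cyp26a1 was the member that passed for rhythm at the phase of Hes7, in the joint fit of both experiments. The clock phase was taken from Hes7, whose period was fitted at 135 min. It peaked in Ex5 near 237 and 372 min and in Ex4 near 212 and 347 min. Cyp26a1 (chromosome 19, 37697798 to 37701536, plus strand) ranged over 30.9, 35.2 and 45.7 CPM in Ex5 (lowest, median, highest) and 27.8, 32.2 and 36.7 CPM in Ex4. In Ex5 the libraries nearest the Hes7 peaks had 45.7 CPM at 240 min and 34.0 CPM at 365 min, and those nearest the troughs had 36.2 CPM at 165 min and 31.7 CPM at 305 min. In Ex4 the peak libraries had 30.9 CPM at 215 min and 36.7 CPM at 345 min, and the trough library had 28.8 CPM at 275 min. Each peak therefore stood above the trough that lay between the peaks of its experiment, and the second Ex5 peak lay below the first Ex5 trough. These are single libraries, and late in Ex5 the levels did not visibly follow Hes7. At 325 and 345 min Cyp26a1 had 34.2 and 30.9 CPM, the latter its lowest in Ex5, while Hes7 had 186 and 334 CPM. At 365, 385, 405 and 425 min Cyp26a1 had 34.0, 33.4, 34.0 and 33.7 CPM. Hes7 had 346, 437, 312 and 239 CPM at these 4 times.

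The fitted cycle of Cyp26a1 was 1.21-fold from trough to peak (log2 0.28 ± 0.05, 32 libraries, adjusted p = 0.000943), against 2.01-fold for Hes7, which defined the phase. Its peak came 6.28 ± 3.82 min after that of Hes7. Fitted separately within the same model, the amplitude was 1.26-fold in Ex5, with the peak at 12.0 min, and 1.19-fold in Ex4, with the peak at -1.78 min. The difference between the experiments in rhythm did not pass the test (adjusted p = 0.859). With a period of its own, Cyp26a1 gave 148 min (95% interval 135 to 165 min), against 135 min (129 to 141 min) for Hes7. The call was lost with no time trend in the fit (adjusted p = 0.119, 1.20-fold), at a fixed period of 180 min (0.0686) and with either experiment alone (adjusted p = 0.0764 in Ex5, 0.117 in Ex4).

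**Figure D3:**
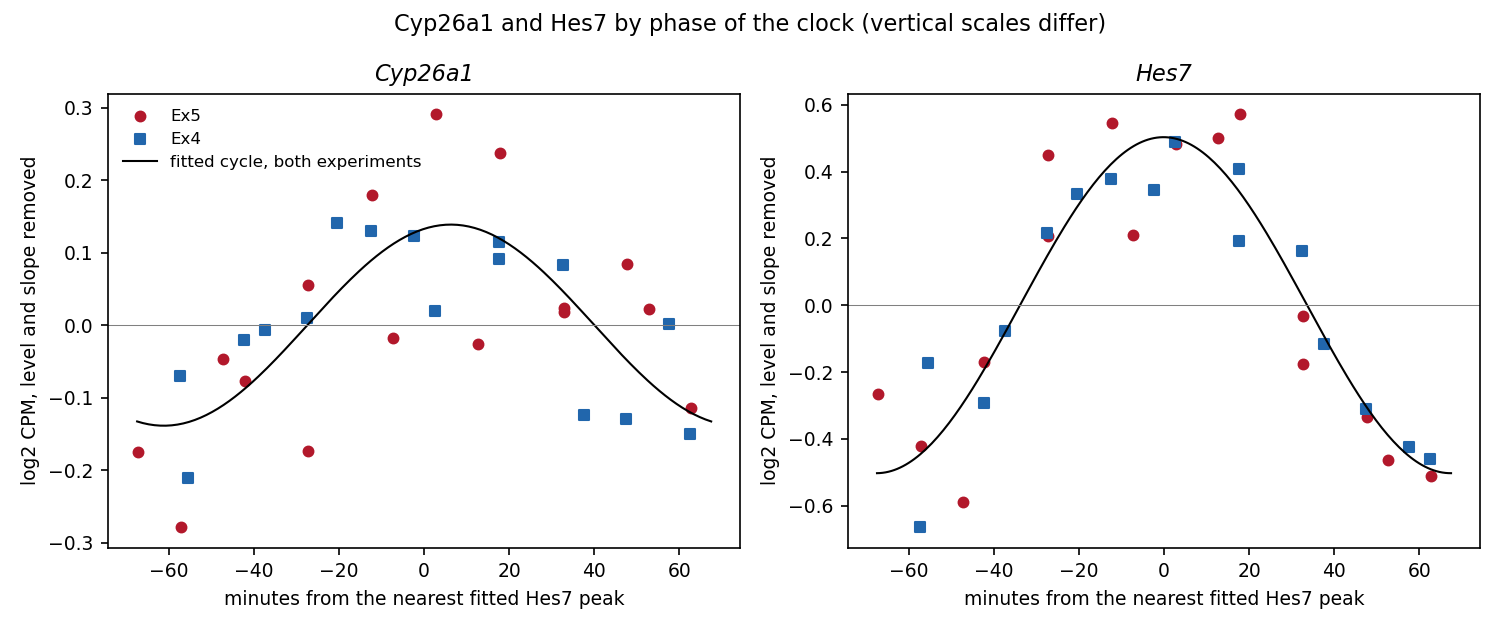
Log2 CPM of Cyp26a1 (left) and Hes7 (right) after removal of each experiment's level and slope, against minutes from the nearest fitted Hes7 peak, for Ex5 (circles) and Ex4 (squares); vertical scales differ. The curves are the fitted cycles, 1.21-fold from trough to peak for Cyp26a1 and 2.01-fold for Hes7.

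None of the other 7 tested members passed for rhythm, so 1 of 8 was called, against a background of 1.32% of all tested genes. Among these 7, Dhrs3 had the largest fitted amplitude, log2 0.37 ± 0.13, with wide error at its low counts (adjusted p = 0.328). Rara followed at log2 0.10 ± 0.04 (adjusted p = 0.432) and Rarg at 0.06 ± 0.03 (adjusted p = 0.505). The other 4 lay between log2 0.02 and 0.06. A shared amplitude is small where the phases of the experiments differ. For Rdh10, the lowest of the 4, the separate amplitudes were log2 0.14 in Ex5 (peak at -49.6 min) and 0.15 in Ex4 (peak at 17.4 min). None of the 11772 tested genes passed for a difference in rhythm between the experiments (0%). At an unadjusted p under 0.05 there were 644 genes, Rdh10 and Rarg among them; DESeq2 and limma-voom also called 0.

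The time course of Cyp26a1 differed between the experiments. Its slope was -0.12 ± 0.03 log2 per 100 min in Ex5 (adjusted p = 0.00104) and 0.10 ± 0.03 in Ex4 (adjusted p = 0.0151). The difference was -0.22 ± 0.04 (adjusted p = 0.000397), while the mean of both slopes was -0.01 ± 0.02 (adjusted p = 0.672). At 285 min its level was log2 0.18 ± 0.03 higher in Ex5 (adjusted p = 1.27e-05), and 6 Ex5 libraries lay above all of Ex4. At the 4 labelled minutes that both experiments share, 345, 365, 385 and 405 min, Ex5 had 30.9, 34.0, 33.4 and 34.0 CPM and Ex4 had 36.7, 36.4, 31.8 and 35.3 CPM. Ex5 was thus higher at 1 of these 4 late times, and the higher level in Ex5 was not seen there.

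The ratio of Aldh1a2 to Cyp26a1, per kb, was 1.42, 1.59 and 2.25 in Ex5 (lowest, median, highest) and 1.20, 1.65 and 2.33 in Ex4. The first library had 2.22 in Ex5 and 2.33 in Ex4, and the last had 1.46 in Ex5 and 1.20 in Ex4. The ratio therefore stood above 1 in all 32 libraries, and the last library lay below the first in both experiments. The fall was not steady. In Ex5 it was 2.22 at 165 min and 2.25 at 180 min, and from 195 min on it stayed between 1.42 and 1.73. In Ex4 it was 2.18 at 292 min. It compares transcripts and says nothing of enzyme activity.

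**Figure D4:**
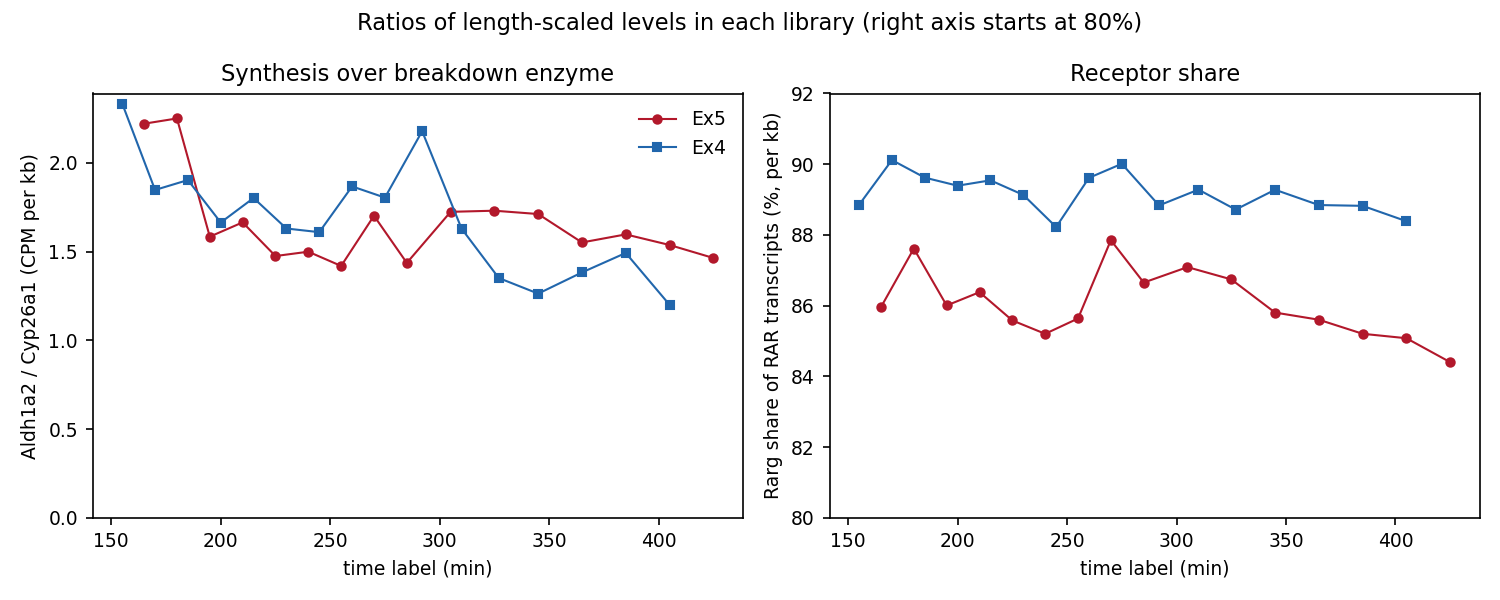
Left, ratio of Aldh1a2 to Cyp26a1 (CPM per kb); right, share of Rarg in the summed RAR transcripts per kb (axis from 80%), both against labelled minutes for Ex5 (circles) and Ex4 (squares). In Ex5 the ratio was 2.22 in the first library, 1.58 at 195 min and 1.46 in the last library. The Rarg share was 84.4 to 87.9% in Ex5 and 88.2 to 90.1% in Ex4.

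Crabp1 (chromosome 9, 54764748 to 54773110, plus strand) had the largest difference between the experiments among the 8 tested members. It had 122, 152 and 169 CPM in Ex5 (lowest, median, highest) and 67.7, 77.7 and 89.6 CPM in Ex4, so every Ex5 library stood above every Ex4 library. Such a separation held for 1.67% of all tested genes. The mean was 149 ± 12.6 CPM in Ex5 and 77.7 ± 5.92 CPM in Ex4 (SD, n = 16 each), a ratio of 1.92, and the fitted difference was log2 0.93 ± 0.04 (adjusted p = 5.15e-23). At the 4 shared minutes the ratio of Ex5 to Ex4 was 2.00, 1.77, 2.01 and 2.29. Crabp1 is also expressed in neural tissue, and 4 neural markers (Sox1, Pax6, Sox2 and Sox3) summed to 27.4 to 35.2 CPM in Ex5 and 44.4 to 55.4 CPM in Ex4. Of these 4 markers 3 were lower in Ex5 and 0 higher, against 27.7% lower and 27.4% higher among all tested genes. Sox2 had 12.5 ± 2.29 CPM in Ex5 and 28.4 ± 3.93 CPM in Ex4. In the wider neural list of 9, 6 genes passed the filter, and the 1 that was higher in Ex5 was Irx3, with 26.6 ± 9.70 CPM in Ex5 and 18.2 ± 4.70 CPM in Ex4 (log2 0.45 ± 0.05, adjusted p = 6.08e-09). Irx3 also passed for rhythm, at 1.46-fold with its peak at -0.78 ± 3.27 min relative to Hes7 (adjusted p = 6.96e-05). The part of neural transcripts in the Crabp1 result was not tested.

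Crabp2 (chromosome 3, 87948666 to 87953376, plus strand) rose over time in both experiments. It had 358, 443 and 511 CPM in Ex5 and 304, 352 and 401 CPM in Ex4 (lowest, median, highest), and 13 Ex5 libraries lay above all of Ex4. The slope was 0.13 ± 0.03 log2 per 100 min in Ex5 and 0.09 ± 0.03 in Ex4, with a mean of 0.11 ± 0.02 (adjusted p = 5.47e-05). In Ex4 the last 3 libraries had 401, 350 and 322 CPM, so the highest came at 365 min and the last 2 lay below it. The level was log2 0.31 ± 0.03 higher in Ex5 (adjusted p = 6.17e-11). Crabp1 made up 35.9 ± 1.62% of the CRABP transcripts per kb in Ex5 and 26.7 ± 1.32% in Ex4 (SD, n = 16 each). The mean slope of Crabp1, 0.05 ± 0.02, did not pass (adjusted p = 0.0578), but passed without any 1 of 8 libraries (adjusted p 0.0104 to 0.0498) and at each other period tried (0.0182 to 0.0362). By experiment, Crabp1 had a slope of 0.08 ± 0.03 in Ex5 (adjusted p = 0.0379) and 0.03 ± 0.04 in Ex4 (adjusted p = 0.539).

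Rarg (chromosome 15, 102234938 to 102257517, minus strand) was the main receptor transcript. It had 178, 186 and 203 CPM in Ex5 and 194, 224 and 239 CPM in Ex4 (lowest, median, highest), with 11 Ex5 libraries below all of Ex4. The level difference, Ex5 minus Ex4, was log2 -0.23 ± 0.02 (adjusted p = 2.20e-12). Rarg also fell over time, with a mean slope of -0.05 ± 0.01 log2 per 100 min (adjusted p = 0.00649). Its slope was -0.05 ± 0.02 in Ex5 (adjusted p = 0.0293) and -0.04 ± 0.02 in Ex4, where it did not pass (adjusted p = 0.0933). Rara (chromosome 11, 98927818 to 98974942, plus strand) went the other way in level, with 27.5, 31.6 and 34.8 CPM in Ex5 and 24.7, 27.5 and 29.9 CPM in Ex4, and 11 Ex5 libraries above all of Ex4. The difference was log2 0.18 ± 0.03 (adjusted p = 7.25e-06); with quadratic time in the fit it was 0.09 and did not pass (adjusted p = 0.0632). The slope of Rara was 0.01 ± 0.02 (95% interval -0.04 to 0.05). Rarg made up 86.1 ± 0.95% of the RAR transcripts per kb in Ex5 and 89.2 ± 0.54% in Ex4, ranges that did not overlap, and Rara made up 13.9 ± 0.96% in Ex5 and 10.8 ± 0.54% in Ex4. Taken alone, Rarg and Rara each overlapped between the experiments, and 55.1% of all tested genes differed in level. How often a share of this kind separates among other genes was not computed. An snRNA gene, Gm22061, lies within Rara on the same strand.

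Rarb (chromosome 14, 16430839 to 16819156, minus strand), a receptor gene that retinoic acid itself induces, was too low to judge. It had 0 to 8 reads per library in Ex5 (42 in all) and 0 to 7 in Ex4 (43 in all), and 3 libraries of each experiment had none. Over the summed libraries this was 0.121 CPM in Ex5 (exact Poisson 95% interval 0.0874 to 0.164) and 0.113 CPM in Ex4 (0.0815 to 0.152), intervals that overlap and cover counting error only. Top2b and Gm48162 overlap Rarb on the other strand, so some of these reads may not be its own.

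Across the 8 tested members, 7 passed for a difference in level, 5 higher in Ex5 (Crabp1, Crabp2, Aldh1a2, Cyp26a1 and Rara) and 2 lower (Rdh10 and Rarg). Among all tested genes 27.4% were called higher and 27.7% lower, 55.1% in either direction, and the median difference was log2 0.18 over the members against -0.0021 over all tested genes. For trend 3 of 8 passed, 1 rising (Crabp2) and 2 falling (Aldh1a2 and Rarg), against 26.8% rising, 26.6% falling and 53.3% in either direction among all genes. For slope differences 2 of 8 passed, Cyp26a1 and Dhrs3, both lower in Ex5, against 9.06% of all genes lower, 7.03% higher and 16.1% in either direction. With 8 genes, these counts are a description.

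**Figure D5:**
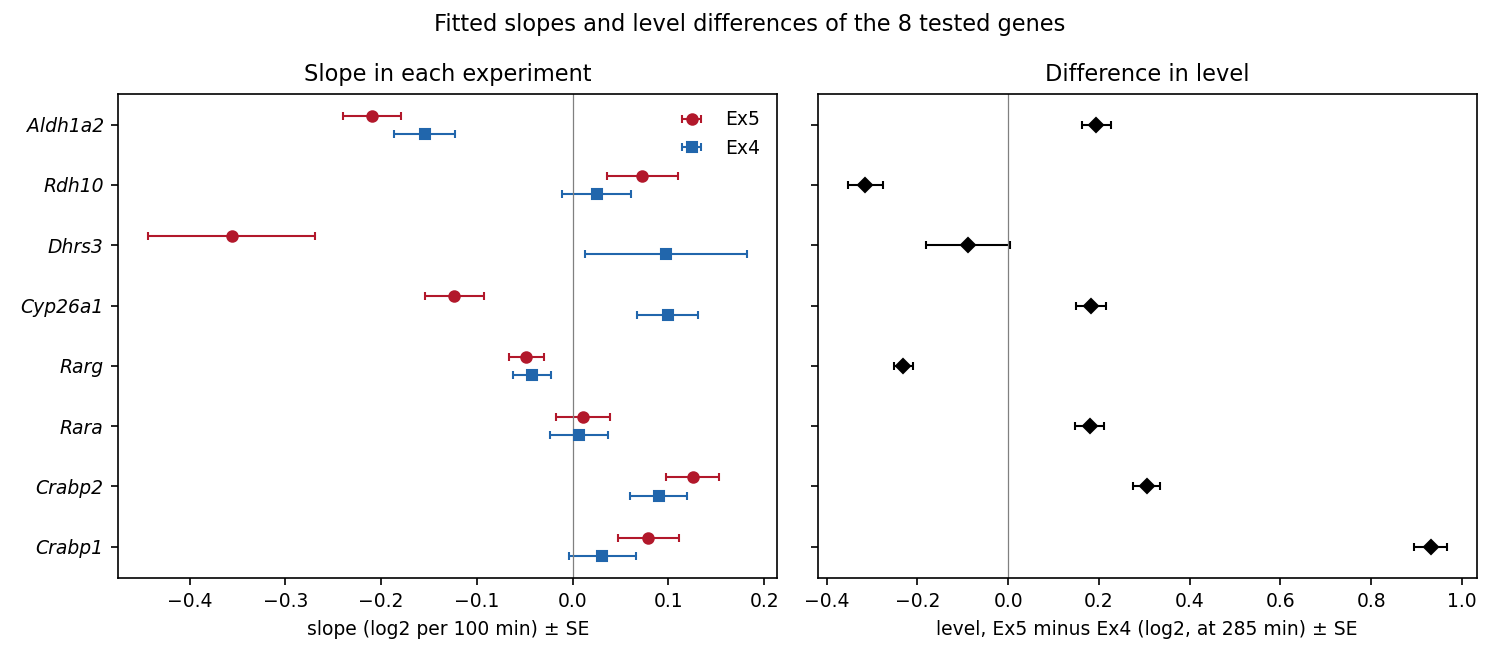
Left, fitted slope (log2 per 100 min) with its SE in Ex5 (circles) and Ex4 (squares); right, level in Ex5 minus Ex4 (log2, at 285 min) with its SE, for the 8 tested genes. Slopes of Cyp26a1 (-0.12 in Ex5, 0.10 in Ex4) and Dhrs3 (-0.36 in Ex5, 0.10 in Ex4) lie on both sides of 0, and Crabp1 has the largest level difference (0.93).

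Of 26 other genes of retinoid metabolism, transport and RXR signalling 13 passed the filter, and 0 of them passed for rhythm, 5 rose, 2 fell, 4 were higher and 7 lower in Ex5. Among all tested genes 1.32% passed for rhythm, 26.8% rose, 26.6% fell, 27.4% were higher and 27.7% lower in Ex5. The median slope of the 13 was 0.00094 log2 per 100 min, against -0.0016 over all tested genes. The relatives of Cyp26a1 and Aldh1a2 were near the floor, here in CPM per kb. The retinoic acid hydroxylase Cyp26b1 averaged 0.0343 in Ex5 and 0.0885 in Ex4, and its relative Cyp26c1 0.0145 in Ex5 and 0.0113 in Ex4. The retinaldehyde dehydrogenases Aldh1a1 (0.0283 in Ex5, 0.0407 in Ex4) and Aldh1a3 (0.0317 in Ex5, 0.0310 in Ex4) were as low, against 18.4 and 30.4 CPM per kb for Cyp26a1 and Aldh1a2 in Ex5. By contrast, other enzymes that act on retinol or retinaldehyde were above Rdh10: Rdh11 had 45.8 ± 1.94 CPM per kb in Ex5 and 35.1 ± 1.51 in Ex4, Dhrs4 16.8 ± 0.94 in Ex5 and 18.5 ± 1.23 in Ex4, and Rdh14 6.89 ± 0.67 in Ex5 and 5.82 ± 0.65 in Ex4. Rxrg, one of the RXR partners, had 6.27 ± 1.15 CPM in Ex5 and 15.9 ± 3.17 CPM in Ex4, a level difference of log2 -1.28 ± 0.06 (adjusted p = 4.02e-20), and fell over time, with a mean slope of -0.25 ± 0.04 log2 per 100 min (adjusted p = 6.44e-06). Rxra had 52.1 ± 3.22 CPM in Ex5 and 46.4 ± 2.28 CPM in Ex4, and Rxrb had 51.0 ± 3.80 CPM in Ex5 and 50.9 ± 2.20 CPM in Ex4. Retsat, which saturates retinol, rose (slope 0.18 ± 0.03, adjusted p = 2.34e-06), and Rdh14, a retinol dehydrogenase, fell (-0.13 ± 0.03, adjusted p = 0.000787). Fabp5, a fatty acid binding protein that can carry retinoic acid, had a mean slope of 0.15 ± 0.02 (adjusted p = 8.31e-09), with 0.25 in Ex5 and 0.05 in Ex4, and these slopes differed (adjusted p = 4.00e-05).

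All 12 coactivators and corepressors of nuclear receptors passed the filter, and 0 passed for rhythm, 2 rose and 2 fell. Among all tested genes 1.32% passed for rhythm, 26.8% rose and 26.6% fell. The corepressor Nrip1 (mean slope -0.10 ± 0.02 log2 per 100 min, adjusted p = 9.60e-05) and the coactivator Ncoa3 (-0.09 ± 0.02, adjusted p = 0.000205) fell. The slope of Nrip1 was -0.18 in Ex5 and -0.01 in Ex4, and the difference passed (adjusted p = 0.00184). The coactivator Ncoa6 (0.08 ± 0.02, adjusted p = 4.94e-05) and the deacetylase Hdac3 (0.04 ± 0.01, adjusted p = 0.0210) rose. Of 18 genes known elsewhere to be induced by retinoic acid 12 passed the filter. Of these 3 passed for rhythm, 5 rose and 4 fell, against the same 1.32%, 26.8% and 26.6% of all tested genes. Meis2, a homeobox gene, cycled 1.17-fold with its peak at -0.17 ± 5.34 min relative to Hes7 (adjusted p = 0.0411) and rose by 0.15 ± 0.03 (adjusted p = 5.23e-06), with slopes of 0.08 in Ex5 and 0.23 in Ex4 that differed (adjusted p = 0.0286). The zinc finger genes Zfp503 (1.25-fold, 59.6 ± 3.91 min, adjusted p = 0.000943) and Zfp703 (1.22-fold, -55.5 ± 4.31 min, adjusted p = 0.00825) cycled in nearly opposite phase to Hes7 and to Cyp26a1. Hoxd4 rose by 0.20 ± 0.03 (adjusted p = 8.32e-06) and the zinc finger gene Tshz1 by 0.11 ± 0.02 (adjusted p = 6.70e-05). The early target Hoxb1 fell (-0.08 ± 0.01, adjusted p = 8.31e-06). Nr2f1, Nr2f2 and Tgm2 were among those below the filter. The targets moved in both directions, with a median slope of 0.02 against -0.0016 over all tested genes.

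Of 12 genes of the tail bud and of its FGF and Wnt signals, the region that expresses Cyp26a1 in the embryo, 11 passed the filter, and 8 fell and 2 rose by the mean of both slopes, with a median of -0.10 log2 per 100 min, against 26.6% falling among all tested genes. The slopes of 6 of the 11 differed between the experiments, against 16.1% of all tested genes. T (-0.20 in Ex5, 0.00269 in Ex4), Msgn1 (-0.25 in Ex5, 0.03 in Ex4) and Cdx2 (-0.12 in Ex5, -0.00160 in Ex4) count among the 8, and their slopes in Ex4 were near 0. For rhythm 4 of the 11 passed, against 1.32% of all tested genes: Hes7, which defined the phase, Cdx2, Fgf4 and Msgn1. Cdx2 cycled 1.15-fold with its peak at -6.64 ± 3.31 min relative to Hes7 (adjusted p = 6.96e-05). Fgf4 (1.19-fold, -60.7 ± 3.70 min, adjusted p = 0.000589) and Msgn1 (1.19-fold, -57.3 ± 3.86 min, adjusted p = 0.00162) cycled in nearly opposite phase. Wnt3a (slope -0.25 ± 0.02, adjusted p = 5.35e-13), Fgf4 (-0.20 ± 0.02, adjusted p = 9.94e-11) and Wnt5b (-0.19 ± 0.02, adjusted p = 2.41e-11) fell on the mean, Wnt3a by slopes of -0.36 in Ex5 and -0.14 in Ex4 and Wnt5b by -0.29 in Ex5 and -0.08 in Ex4, while Tbx6 rose by 0.18 ± 0.02 (adjusted p = 9.58e-10). Of 12 genes of anterior PSM and somites, Aldh1a2 among them, 6 passed the filter. Of these 3 rose and 2 fell, against 26.8% rising and 26.6% falling among all tested genes. Foxc1, a forkhead factor of paraxial mesoderm, rose by 0.23 ± 0.03 (adjusted p = 8.08e-08), the opposite direction to Aldh1a2. Mesp1, at 3.33 CPM in Ex5 and 3.23 CPM in Ex4, fell like Aldh1a2 (-0.17 ± 0.06, adjusted p = 0.00991).

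After each experiment's level and slope were removed, the gene most like Cyp26a1 over the 32 libraries was Sox8 (Pearson r = 0.76, Spearman rho = 0.76), followed by Mcat (r = 0.71, rho = 0.70) and Gse1 (r = 0.69, rho = 0.64). Sox8 cycled 1.56-fold (adjusted p = 1.30e-05) and Gse1 1.43-fold (adjusted p = 9.22e-11), and Mcat did not pass for rhythm. The genes most like Rara were Nkd1 (r = 0.80, rho = 0.83), Erf (r = 0.76, rho = 0.75) and Ddit4 (r = 0.75, rho = 0.74). Erf and Ddit4 passed for rhythm (1.19-fold and 1.12-fold) and Rara did not. For Crabp2 they were Prdx2 (r = 0.89, rho = 0.87), Sae1 and Naca, for Crabp1 Timm8b (r = 0.78, rho = 0.74), Txndc5 and H3f3a, and for Rarg Ndufa7 (r = 0.81, rho = 0.70) and Ndufa3. Aldh1a2 was nearest to S1pr5 (r = 0.68, rho = 0.55), Bscl2 and G0s2, Rdh10 to Tbc1d15 (r = 0.68, rho = 0.61), Usp16 and Jam2, and Dhrs3 to Kcnq3 (r = 0.63, rho = 0.67), Exd2 and Spef1. Genes of 1 library share its depth and scaling factor, so these values describe likeness only.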

How the data were processed

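Polyadenylated RNA was measured in 32 libraries, and the authors deposited raw counts for each gene symbol. Per the submitters' processing notes, the tools were HTSeq 0.6.1, HISAT2 2.1.0, cutadapt 1.14 and bcl2fastq 2.17.1.14, with build mm10; sources used here do not state the annotation or the strand option. Members, gene lists and tests were chosen with earlier results of these data known. CPM used TMM factors. All 11772 genes with at least 1 CPM in 16 libraries were fitted with edgeR 4.0.16 (R 4.3.3; quasi-likelihood, Benjamini-Hochberg, threshold 0.05): each experiment had its own level (at 285 min) and slope, and both shared a cosine and sine of the Hes7 phase, itself from least squares on log2 CPM (prior count 0.5, periods of 90 to 240 min). Rhythm was tested on cosine and sine together, trend on the mean slope, level and slope as Ex5 minus Ex4. Standard errors leave out the error of the phase. The fit was tested on simulated data. Exon lengths are from GENCODE M21 by symbol. Beyond the members, genes were named if called for rhythm or, up to 4 a list at 5 CPM or more, for the largest called slopes; Hoxb1, the Cyp26 and Aldh1a relatives, Rxra, Rxrb, Rdh11, Dhrs4, T, Msgn1 and marker genes were added after their values were seen, and a few genes that met these rules are not reported here. Likeness used the 3 highest Pearson r, without predicted gene models. Alternatives were other scalings, DESeq2 1.42.0, limma-voom (limma 3.58.1), filters, periods, trends, single experiments, a replicate block and each library left out.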

Additional observations from a re-analysis of the deposited data

Results flagged for a closer look

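For 2 genes the time course differed between the experiments by a test of the difference itself. The slope of Cyp26a1 in Ex5 minus that in Ex4 was -0.22 ± 0.04 log2 per 100 min (adjusted p = 0.000397, edgeR). The fitted slope was negative in Ex5, where the first and last 3 libraries were close, and positive in Ex4. For Dhrs3 it was -0.45 ± 0.12 (adjusted p = 0.00710), from at most 107 reads per library. Over the 32 fits that each left out 1 library, the difference stayed between -0.25 and -0.20 for Cyp26a1 and between -0.53 and -0.41 for Dhrs3, and both passed in all 32.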

How the results depend on the processing

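The count of members called for rhythm was 1 and became 0 at a period of 180 min (Cyp26a1 adjusted p = 0.0686), with no trend (0.119), in Ex5 alone (0.0764) and in Ex4 alone (0.117); with a library left out it was 1 in all 32 fits (lowest 1, highest 1; Cyp26a1 adjusted p 0.000330 to 0.00547). Trend calls were 3, against 5 at 120 min, 5 at 180 min and 5 in Ex5 alone, and 3 to 5 with a library left out (5 without the Ex5 library at 165 min and 5 without that at 425 min). Slope difference calls were 2, and 1 with the 5 CPM filter, under which Dhrs3 was not tested. Level difference calls stayed at 7, and were 6 with quadratic time, when Rara was lost. The trend of Cyp26a1 was 0.11 log2 per 100 min in Ex4 alone, against -0.01 in both experiments together. Crabp1 passed for trend at 120 min (adjusted p = 0.0362), 150 min (0.0359) and 180 min (0.0182), without both farthest libraries named below (0.00956), and without the Ex5 library at 165, 255, 385 or 425 min or the Ex4 library at 155, 185, 385 or 405 min. Dhrs3 passed for trend without the Ex5 library at 365 or 425 min or the Ex4 library at 215 min (adjusted p 0.0296 to 0.0350), and Rarg lost its call in Ex4 alone (0.181). For all tested genes, rhythm calls were 155, and 62 with no trend, 47 in Ex5 alone and 40 in Ex4 alone; rhythm differences were 0, and 2 with no filter and 3 at 180 min. Without the library farthest from the fitted curves in each experiment (Ex5 at 305 min, Ex4 at 405 min; chosen after seeing the data) the member counts were 1 for rhythm, 4 for trend, 7 for level, 2 for slope and 0 for rhythm difference. With only level removed, the 3 genes most like Cyp26a1, Aldh1a2, Rdh10, Dhrs3 and Rarg shared 0 with those named, and 1 was shared for Crabp1. With the replicate block, level calls were 7 and slope calls 2. Same-numbered libraries were not sampled at the same minutes: their deviations correlated at -0.16 to 0.15 over 16 pairs, and 0 of 32 libraries correlated best with its own number. The cause of these changes was not tested. Depth limits Rarb and Dhrs3 most.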
